A study of Saccharomyces pastorianus with 18 samples.

Results

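W34/70 9.7 is a mutant of the lager yeast Saccharomyces pastorianus, and its change in gene expression between day 4 and day 2 of a wort fermentation is described here from 6 RNA-seq libraries of the 18 in the series. The libraries were chosen by their titles: 3 of W34/70 9.7 on day 4 and 3 of W34/70 9.7 on day 2. Per the labels' protocols, the strain is a single resistant colony obtained after parental W34/70 cells had been exposed to radicicol (20, 40 or 100 µg/mL), an inhibitor of the chaperone Hsp90, and plated on the phenylalanine analogue B2TA (75 µg/mL) or PFPA (200 µg/mL). Cells of both days were propagated in YPDM at 25 °C and pitched into 10% wort with 1 mM ZnSO4, and the 10 mL fermentations ran at 13 °C without shaking in tubes with a water-trap airlock. The W34/70 parent was not analysed here, so no value below separates the mutation from the strain background. Wort libraries of a second radicicol mutant, CBS1538 11.1, on day 4 and day 2 (3 each) serve only for the comparison with another strain at the end.

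Lager yeast is a hybrid of S. cerevisiae and S. eubayanus, and most genes are present as a copy from each parent. In wort it takes up glucose and then maltose, turns them through glycolysis into ethanol and CO2, and uses up the free amino acids, with proline left to the last. Oxygen is spent early, which limits sterol and unsaturated fatty acid synthesis, and growth stops while sugar is still being fermented. Fusel alcohols and their acetate esters, which give beer much of its flavour, come from amino acid breakdown through the Ehrlich pathway. The selection on phenylalanine analogues is one used to find yeast with altered aromatic amino acid metabolism.

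Library totals were 13824408 to 18470053 counts on day 4 and 12782267 to 15020202 on day 2. The 6 libraries were not alike in their chromosomes, as the plot of chromosome levels shows. Day 4 replicate 1 and day 2 replicate 2 held 1417 and 1465 counts on the 496 features of S. eubayanus chromosome VII, against 307904 and 396506 in the other day 4 libraries and 284445 and 313474 in the other day 2 libraries. The same 2 libraries were low for S. cerevisiae XII, with medians of -0.86 and -0.80 (log2) relative to the other libraries of their day. S. cerevisiae I was low in day 4 replicate 2 (-1.08) and day 2 replicate 1 (-0.99), and S. eubayanus II was high in day 4 replicate 3 (0.88) and day 2 replicate 3 (0.95). The other chromosomes lay between -0.48 and 0.39, with S. cerevisiae XVI lowest in day 4 replicate 1 (-0.48) and day 2 replicate 2 (-0.36). Each of the large deviations thus occurred in 1 library of each day, so none of them separates the days. Genes with a copy on S. eubayanus VII were left out of the fits over 6 libraries and are reported from the 4 libraries that hold that chromosome.

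**Figure D1:**
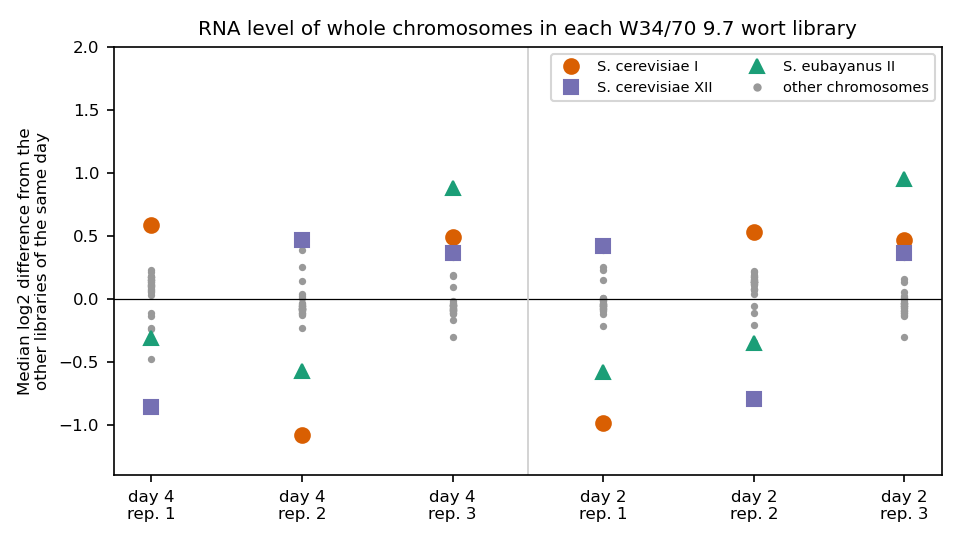
Each point is the median, over the features of a chromosome, of the log2 difference between a library and the other libraries of its day, with day 4 on the left and S. eubayanus VII not drawn. S. cerevisiae I lay at -1.08 (day 4 replicate 2) and -0.99 (day 2 replicate 1), and the chromosomes drawn as small points lay between -0.48 and 0.39.

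With the counts of all copies of a gene summed, 958 of 6048 genes (15.8%) were higher on day 4 and 830 (13.7%) were lower, at an adjusted p under 0.05 in edgeR's quasi-likelihood test. With the copies kept apart, 1299 of 10162 features (12.8%) were higher and 1322 (13%) lower. The counts depended on single libraries: with the copies summed, 389 genes were higher and 305 lower without day 4 replicate 2, 459 and 419 without day 2 replicate 1, and 575 and 502 without day 2 replicate 3. Without day 4 replicate 3, 715 were higher and 552 lower. A list of genes is given below as the number of its members that passed the test over all genes, beside the list's median log2 change, where the median of all 6048 genes was 0.03. Values are CPM (counts scaled to a common library size by TMM factors), and replicates 1, 2 and 3 are given in that order.

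Day 2 libraries were dominated by fewer genes. The 100 most abundant features took 22.1% to 27% of the counts on day 4 and 35% to 35.5% on day 2, and the TMM factors that correct for this were 1.11 to 1.27 on day 4 and 0.791 to 0.909 on day 2. Scaled by library totals alone, the median gene stood at 0.51 (log2) in place of 0.03, and 88.2% of all calls were higher on day 4, against 53.6% with TMM. A rise or fall below is therefore a change relative to the median gene. Where a named gene lost its call under that scaling, or without 1 library, its paragraph says so.

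The largest rises among abundant genes whose days did not overlap were led by PUT1, which encodes proline oxidase, the first enzyme of proline use. PUT1 had 27.6, 85.8 and 783 CPM on day 4, against 12.1, 18.7 and 6.17 CPM on day 2. The days did not overlap, but the 3 day 4 libraries themselves spanned a wide range, with replicate 3 far above the others. The log2 change was 4.59 (SE 1.19, adjusted p = 0.0239), and the call was lost without day 2 replicate 1 (adjusted p = 0.0818) and without day 2 replicate 3 (0.0903). Without day 4 replicate 3 the change was 2.20, still called but below that of COX7. Both copies rose: the S. cerevisiae copy (YLR142W, S. cerevisiae XII:425186-426616) by 5.65 and the S. eubayanus copy (DI49_3664, S. eubayanus XII:431012-432460) by 3.13.

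COX7, a small subunit of cytochrome c oxidase, rose by 2.79 (SE 0.36, adjusted p = 0.00456), with 87.2, 96.3 and 132 CPM on day 4 and 12.1, 23.8 and 9.74 CPM on day 2. SMD2, a core protein of the spliceosomal snRNPs, had 77.6, 84.3 and 65.1 CPM on day 4 and 8.29, 12 and 13.3 CPM on day 2, and rose by 2.76 (SE 0.24, adjusted p = 0.00404). The other named rises were POL4 (2.80), a DNA polymerase used in repair, MSS2 (2.48), needed for cytochrome oxidase assembly, SNT309 (2.45), part of the Prp19 splicing complex, BLI1 (2.42), a BLOC-1 subunit, and TAN1 (2.40), which acts in tRNA acetylation. HMRA1 (2.99) and PAU17 (2.40) were also among the 10, but both have near-identical copies elsewhere, so reads may have been counted on either copy. Apart from PUT1, each of these 9 genes kept its call with each library left out in turn.

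The largest falls mixed amino acid, sugar and housekeeping genes. ILV6, which regulates acetolactate synthase on the way to valine and isoleucine, had 343, 262 and 315 CPM on day 4, against 1643, 1283 and 2313 CPM on day 2. No overlap between the days was a condition for being among these 10 falls. The log2 change of ILV6 was -2.51 (SE 0.28, adjusted p = 0.00449). ENO2, the main glycolytic enolase, had 4338, 2712 and 3608 CPM on day 4, against 18159, 16190 and 16986 CPM on day 2 (-2.27, SE 0.26, adjusted p = 0.00449). Falls of 1.97 to 2.21 (log2) followed in DPM1 (dolichol phosphate mannose synthase), THR1 (homoserine kinase), STP22 (an ESCRT-I subunit), PTA1 (an mRNA 3' end processing factor), GLK1 (glucokinase), DPS1 (aspartyl-tRNA synthetase), ATS1 and PTC2 (a protein phosphatase). These 10 falls kept their call with each library left out in turn.

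**Figure D2:**
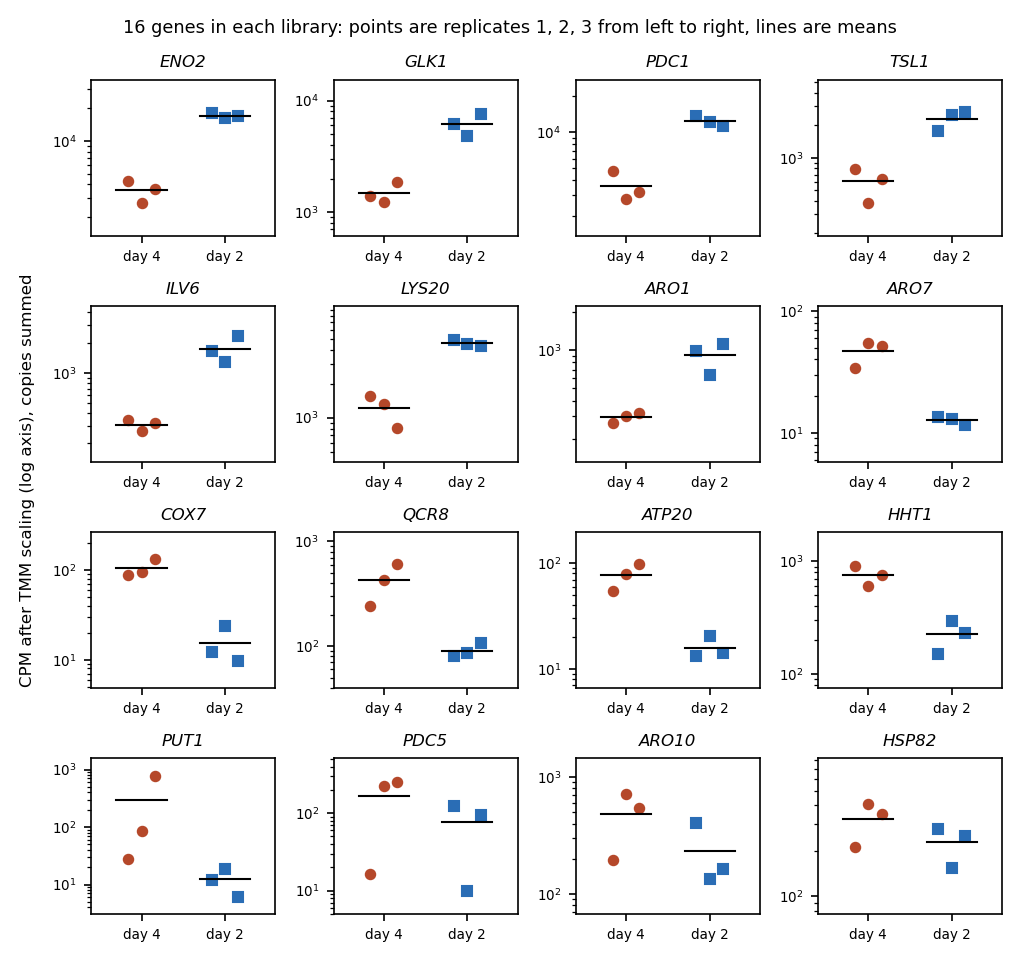
CPM after TMM scaling (log axis, copies summed) of 16 named genes, with the 3 day 4 libraries as circles on the left of each panel, the 3 day 2 libraries as squares on the right and lines at the means. ENO2, GLK1, PDC1, TSL1, ILV6, LYS20 and ARO1 lie lower on day 4 in every library and COX7, QCR8, ATP20, HHT1, ARO7 and PUT1 higher, while PDC5 spans 16.2 to 255 CPM on day 4 and 9.98 to 124 CPM on day 2.

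Sugar breakdown genes were lower on day 4. Of 13 glycolytic genes fitted, 10 fell and 0 rose in edgeR's test (0 higher at an unadjusted p under 0.05, and 0 by DESeq2), with a median of -1.30. Together the 13 took 76629, 52955 and 64450 CPM on day 4 and 169395, 160660 and 172662 CPM on day 2. Apart from ENO2, GLK1 fell to 1406, 1234 and 1850 CPM on day 4, against 6111, 4813 and 7634 CPM on day 2 (-2.05, SE 0.27), and PYK2, the minor pyruvate kinase, fell by 1.53. Of 4 further glycolytic genes with a copy on S. eubayanus VII, 3 fell and 0 rose over 4 libraries. Leaving out 1 library gave 8 to 11 falls among the 13.

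The same direction held in the step from pyruvate to ethanol for its most abundant members. PDC1, the major pyruvate decarboxylase, had 4768, 2750 and 3155 CPM on day 4 and 13671, 12204 and 11285 CPM on day 2 (-1.80, SE 0.27, adjusted p = 0.0053). ADH1, the fermentative alcohol dehydrogenase, had 4975, 3356 and 3838 CPM on day 4 and 11421, 10866 and 9009 CPM on day 2 (-1.36, SE 0.24). The mitochondrial aldehyde dehydrogenase ALD4 fell by 1.21. In all 4 of 18 members fell and 0 rose (0 higher at an unadjusted p under 0.05 in edgeR, and 0 by DESeq2). Of 11 maltose-use genes, which are multi-copy and uncertain by copy, 0 were called either way in edgeR's test, against 0 higher and 1 lower at an unadjusted p under 0.05 and by DESeq2.

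Reserve carbohydrate genes fell as well. Of 10 trehalose genes, 7 fell and 0 rose in edgeR (0 higher at an unadjusted p under 0.05, and 0 by DESeq2), with a median of -1.08, and 6 to 8 fell with 1 library left out. Under library totals 4 fell, with a median of -0.61. TSL1, a regulatory subunit of trehalose synthase, had 793, 381 and 639 CPM on day 4 and 1786, 2514 and 2637 CPM on day 2 (-1.94, SE 0.32, adjusted p = 0.00638). The catalytic subunit TPS1 fell by 1.50 and the neutral trehalase NTH1, which breaks trehalose down, by 1.18. The list thus holds genes of synthesis and of breakdown that moved together. Of 13 glycogen genes 4 fell and 1 rose (1 and 3 under library totals), with 1 to 4 falls when a library was left out, the lowest without day 4 replicate 1. Glycogen phosphorylase GPH1 fell by 1.33, and the member that rose, GLC7 (1.51), encodes the catalytic subunit of protein phosphatase 1, which acts in many processes.

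The glycerol list had 4 of 10 genes lower and 0 higher (0 higher at an unadjusted p under 0.05 in edgeR, and 0 by DESeq2), with a median of -0.57. Under library totals 2 fell, with a median of -0.10. GPD2, a glycerol-3-phosphate dehydrogenase, had 185, 134 and 216 CPM on day 4 and 473, 599 and 500 CPM on day 2 (-1.56, SE 0.24, adjusted p = 0.00555). Without day 4 replicate 2, 2 of the 10 fell. DAK1, dihydroxyacetone kinase, fell by 1.25 and GPD1 by 0.99. The GPD1 call was lost under library totals, without day 4 replicate 2 (adjusted p = 0.0698), without day 4 replicate 3 (0.0536) and without day 2 replicate 1 (0.0659).

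**Figure D3:**
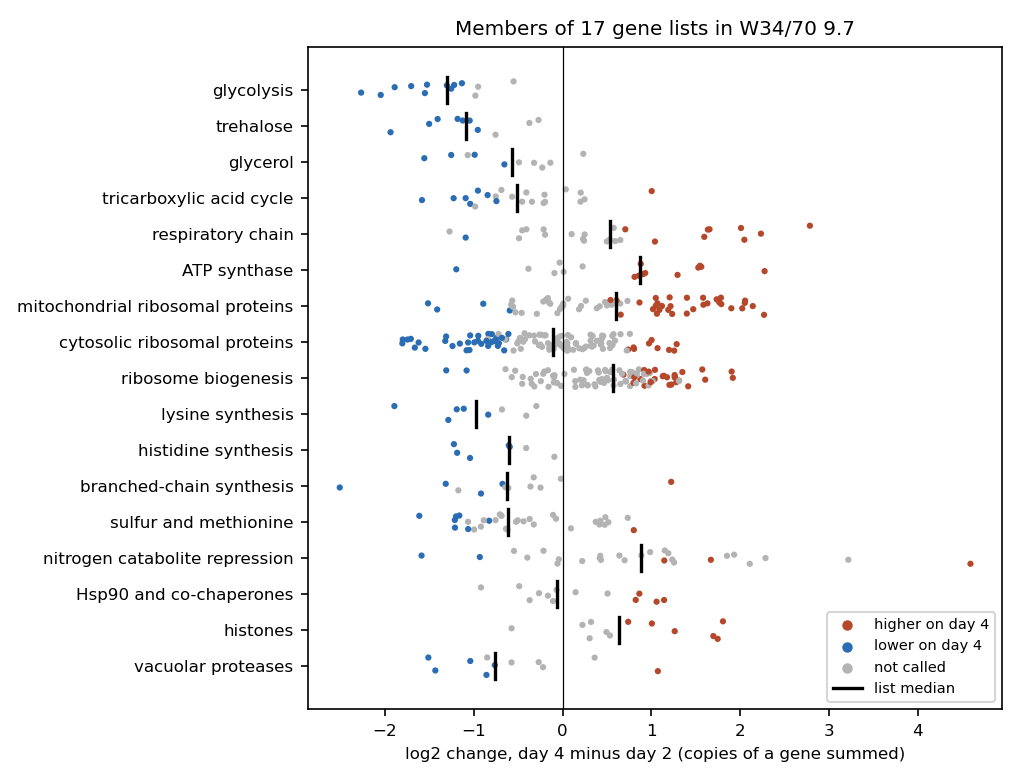
Each point is the log2 change (day 4 minus day 2, copies summed) of a member of 17 gene lists, coloured by its call over all 6048 genes, with a bar at the list's median. The glycolysis and trehalose medians lie at -1.30 and -1.08, and the ATP synthase and mitochondrial ribosomal protein medians at 0.87 and 0.60.

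Mitochondrial genes moved both ways. The respiratory chain list had 9 of 25 members higher and 1 lower (median 0.53), and the ATP synthase list 10 of 16 higher and 1 lower (median 0.87). The summed levels did not follow these counts, and the days overlapped in both. The ATP synthase list summed to 4257, 3715 and 5500 CPM on day 4 and 5419, 4982 and 6152 CPM on day 2. The respiratory chain list summed to 6408, 5982 and 8637 CPM on day 4 and 5118, 5990 and 6008 CPM on day 2. QCR8, a subunit of the cytochrome bc1 complex, had 243, 427 and 612 CPM on day 4 and 79.9, 85.9 and 106 CPM on day 2 (2.23, SE 0.35, adjusted p = 0.00542). CYC7, the hypoxic isoform of cytochrome c, had 367, 475 and 472 CPM on day 4 and 132, 158 and 133 CPM on day 2 (1.64, SE 0.21), and the cytochrome oxidase subunit COX12 rose by 2.05. ATP20, ATP19 and TIM11, small membrane subunits of ATP synthase, rose by 2.28, 1.56 and 1.55.

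The members that fell were large catalytic subunits. ATP2, the beta subunit of the ATP synthase head, had 1230, 1057 and 1675 CPM on day 4 and 2973, 2568 and 3538 CPM on day 2 (-1.20, SE 0.26, adjusted p = 0.0125), and its call was lost without day 4 replicate 2 (0.0516). SDH1, the flavoprotein of succinate dehydrogenase, fell by 1.09, with the call lost under library totals, without day 4 replicate 2 (adjusted p = 0.0652) and without day 2 replicate 3 (0.0638). With 1 library left out, 5 to 11 respiratory chain members and 5 to 8 ATP synthase members were higher, the lowest counts without day 2 replicate 1 and without day 4 replicate 2. COX26, a small cytochrome oxidase-associated protein, stood at 70.3, 63.9 and 214 CPM on day 4 and 35.6, 35.2 and 39.7 CPM on day 2. Its call (1.66, adjusted p = 0.0293) was lost with the length trend described next removed (0.0689) and without each day 2 library in turn (adjusted p = 0.0601 to 0.0943).

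Feature length moved with the change. Over the 10162 features, the median log2 change was 0.51 for features of 300 bases or less and -0.24 for those over 3000 bases, and Spearman's rho between length and change was -0.17, a description across features. Higher features had a median length of 888 bases and lower ones 1335, against 1233 for all. The ATP synthase list had a median length of 362 bases and the respiratory chain list 462. With the length trend of each library removed by an offset, an alternative chosen after seeing the data, 6 ATP synthase and 5 respiratory chain members were higher. The part of length in these results was not tested beyond that offset.

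**Figure D4:**
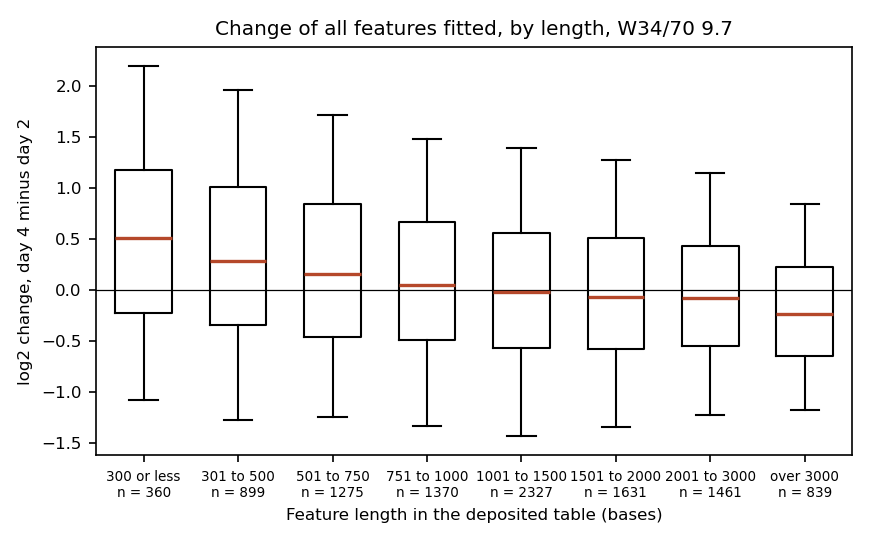
Boxes show the quartiles of the log2 change (day 4 minus day 2) of all 10162 features fitted with copies apart, by feature length, with whiskers at the 5th and 95th percentiles. The median runs from 0.51 in the shortest features to -0.24 in the longest.

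Tricarboxylic acid cycle genes had 7 of 22 members lower and 1 higher (2 and 1 under library totals), with a median of -0.51, and 2 were lower without day 4 replicate 2. PYC2, pyruvate carboxylase, had 460, 375 and 430 CPM on day 4 and 1269, 1065 and 1452 CPM on day 2 (-1.58, SE 0.22, adjusted p = 0.0051), and the malic enzyme MAE1 fell by 1.23. The member that rose, CIT2 (1.00), encodes the peroxisomal citrate synthase of the glyoxylate cycle, and its call was lost without day 4 replicate 3 (adjusted p = 0.0714), day 2 replicate 1 (0.108) and day 2 replicate 2 (0.0561). Haem and oxygen regulator genes had 5 of 17 members lower and 3 higher (1 and 3 under library totals), with 2 lower without day 2 replicate 1 and 0 higher without day 4 replicate 2. Among them HEM3, porphobilinogen deaminase, fell by 1.75 and HAP5, a DNA-binding subunit of the HAP complex, by 0.96, with the HAP5 call lost under library totals. HAP4, the activator subunit of the same complex, had 684, 488 and 799 CPM on day 4 and 192, 352 and 372 CPM on day 2 (1.11, adjusted p = 0.0323). That call was lost in 5 of the 6 fits with a library left out (adjusted p up to 0.099).

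Of 64 mitochondrial ribosomal protein genes, 31 rose and 4 fell, with a median of 0.60. MRPL15 had 83.6, 96.9 and 73.6 CPM on day 4 and 21.8, 18.4 and 17.3 CPM on day 2 (2.14, SE 0.20, adjusted p = 0.00404), and MRPS8 and MRPS28 rose by 2.06 and 1.78. MRPL4 and RSM7 went the other way and fell by 1.41 and 1.51. The rises numbered 22 to 33 with 1 library left out, the lowest without day 4 replicate 2, and 28 with the length trend removed, when 9 members fell. The list's median length was 706 bases. In mitochondrial protein import 8 of 27 members rose and 7 fell, against 13 and 1 under library totals, so the balance depended on the scaling. The 8 rises include TIM11, which is also counted above with ATP synthase. TIM10, a small intermembrane chaperone, rose by 1.67, while TIM44 and TIM50, subunits of the inner membrane translocase, fell by 1.41 and 1.13. The TIM50 call was lost under library totals. With the length trend removed, 3 import members rose and 8 fell, and without day 4 replicate 2, 3 rose and 2 fell.

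Several amino acid synthesis lists had mostly falls among their calls with TMM scaling. Of 8 lysine genes 5 fell and 0 rose, with a median of -0.97, and of 7 histidine genes 5 fell and 0 rose, with a median of -0.61. Under library totals 4 lysine and 2 histidine genes fell and 0 rose in either list. Neither list had a member higher at an unadjusted p under 0.05 in edgeR or by DESeq2, where the count was 0 in both. LYS20, homocitrate synthase, had 1543, 1320 and 815 CPM on day 4 and 4851, 4527 and 4284 CPM on day 2 (-1.89, SE 0.28, adjusted p = 0.00517). The days lay far apart, and LYS4 and LYS1 fell by 1.19 and 1.11. HIS3 and HIS2 fell by 1.19 and 1.22, and the HIS2 call was lost without day 4 replicate 2 (adjusted p = 0.0581), when 3 lysine genes and 1 histidine gene fell.

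Of 12 branched-chain synthesis genes 4 fell and 1 rose (2 and 1 under library totals), with ILV6 first in size and LEU4, alpha-isopropylmalate synthase, falling by 1.32. Without day 4 replicate 2, 2 branched-chain genes and 1 arginine gene fell. OAC1, a mitochondrial carrier that exports the leucine precursor, rose by 1.22 (adjusted p = 0.0317), but that call was lost in 4 fits with a library left out (adjusted p up to 0.106). Of 12 arginine genes 3 fell and 1 rose, against 1 and 2 under library totals, so the majority depended on the scaling. Argininosuccinate lyase ARG4 had 1059, 759 and 903 CPM on day 4 and 2147, 1960 and 3360 CPM on day 2 (-1.46, SE 0.28, adjusted p = 0.0088). The riser, ARG82, is an inositol polyphosphate kinase also needed for arginine regulation, and its call was lost in 5 such fits (adjusted p up to 0.0955). Of 33 sulfur and methionine genes 7 fell and 1 rose (2 and 4 under library totals), with 2 to 16 falls when a library was left out. The fewest were without day 4 replicate 2 and 15 members fell without both libraries that lack S. eubayanus VII. MET30, which targets the activator Met4, fell by 1.21, and S-adenosylmethionine synthetase SAM1 by 1.20 (lost under library totals).

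Genes for aromatic amino acid synthesis, the pathway behind the analogue selection, went in both directions. ARO1, the pentafunctional enzyme of the shikimate pathway, had 264, 302 and 318 CPM on day 4 and 990, 631 and 1110 CPM on day 2 (-1.63, SE 0.26, adjusted p = 0.00584). ARO4, the DAHP synthase inhibited by tyrosine, had 509, 552 and 539 CPM on day 4 and 1428, 1071 and 1426 CPM on day 2 (-1.29, SE 0.21, adjusted p = 0.00611). Both lay lower in every day 4 library. ARO3, the DAHP synthase inhibited by phenylalanine, had 932, 1069 and 1002 CPM on day 4 and 1400, 846 and 1404 CPM on day 2, where the days overlapped (adjusted p = 0.422).

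ARO7, chorismate mutase, the enzyme that commits chorismate to phenylalanine and tyrosine, had 34.3, 54.8 and 52.0 CPM on day 4, against 13.6, 13.1 and 11.6 CPM on day 2. It rose by 1.88 (SE 0.24, adjusted p = 0.00449), kept its call with each library left out, and both copies rose: the S. eubayanus copy (DI49_5513) by 1.92 and the S. cerevisiae copy (YPR060C) by 1.80. Downstream of it, prephenate dehydratase PHA2 (log2 change 0.06, adjusted p = 0.851) and prephenate dehydrogenase TYR1 (0.29, adjusted p = 0.232) were not called. ARO2 and ARO8 have a copy on S. eubayanus VII and were tested on 4 libraries. Chorismate synthase ARO2 had 350 and 336 CPM on day 4 and 789 and 1154 CPM on day 2 (-1.50, SE 0.28, adjusted p = 0.0109). The transaminase ARO8 had 850 and 903 CPM on day 4 and 2551 and 3672 CPM on day 2 (-1.83, SE 0.29, adjusted p = 0.00765). Both calls were lost without day 2 replicate 3 (adjusted p = 0.0643 for ARO2 and 0.0533 for ARO8), a fit with 1 day 2 library that is assumed to vary like those of day 4.

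The Ehrlich pathway genes that are induced by aromatic amino acids varied widely within each day, and their days overlapped. ARO10, phenylpyruvate decarboxylase, had 196, 722 and 542 CPM on day 4 and 406, 135 and 164 CPM on day 2 (adjusted p = 0.18). The transaminase ARO9 had 70.2, 286 and 193 CPM on day 4 and 204, 67.9 and 126 CPM on day 2 (adjusted p = 0.536). PDC5, a pyruvate decarboxylase isozyme on S. cerevisiae XII, had 16.2, 223 and 255 CPM on day 4 and 124, 9.98 and 95.1 CPM on day 2 (adjusted p = 0.433). In all 3 genes the lowest library of each day was day 4 replicate 1 and day 2 replicate 2, the libraries without S. eubayanus VII counts. With these 2 libraries left out, PDC5 was called higher on day 4 in edgeR's test (1.11, adjusted p = 0.0161). ARO10 (1.13, adjusted p = 0.0775) and ARO9 (0.52, adjusted p = 0.239) were not called in that fit. No fit matched libraries of the 2 days by their chromosome deviations, so a day difference within such matches was not tested. Their regulator ARO80 had 43.5, 44.1 and 43.2 CPM on day 4 and 24.0, 33.1 and 29.0 CPM on day 2 (0.60, adjusted p = 0.0447), a call lost with RLE factors, without the low-count filter, with S. eubayanus VII kept, and in 5 of the 6 fits with a library left out (adjusted p up to 0.157).

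The branched-chain transaminases BAT1 (589, 827 and 1224 CPM on day 4 and 1719, 529 and 1143 CPM on day 2) and BAT2 (60.7, 126 and 345 CPM on day 4 and 320, 125 and 366 CPM on day 2) overlapped between days and were not called. Neither was ADH2, which stayed under 4 CPM in every library, nor the sulfite exporter SSU1. Among ester genes, the alcohol acetyltransferase ATF1 had 86.4, 82.0 and 77.7 CPM on day 4 and 85.1, 78.5 and 76.1 CPM on day 2, a log2 difference of 0.04 (SE 0.16, adjusted p = 0.876). ATF2, on 4 libraries, was not called (-0.58, adjusted p = 0.127), nor was the ethyl ester synthase EHT1 (-0.30, adjusted p = 0.346). EEB1, the other medium-chain ethyl ester synthase, had 442, 394 and 664 CPM on day 4 and 209, 287 and 246 CPM on day 2 (1.02, SE 0.26, adjusted p = 0.0235). Its call was lost without day 4 replicate 3 (adjusted p = 0.0625), day 2 replicate 1 (0.0979) and day 2 replicate 3 (0.0743). The acetate esterase IAH1 fell by 0.58 (adjusted p = 0.0357), a call lost under library totals and in 5 such fits (adjusted p up to 0.126).

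Nitrogen catabolite repression genes are expressed when good nitrogen sources run out. In this list 3 of 27 members were higher and 2 lower, shares below those of all genes (15.8% and 13.7%). Under library totals 14 were higher and 1 lower. The list median was 0.89. The summed level of the 27 genes was 2510, 2256 and 7442 CPM on day 4 and 2620, 2390 and 2380 CPM on day 2, so day 4 replicate 3 alone stood apart. DAL80, a GATA repressor that is itself a target, had 8.86, 6.20 and 81.1 CPM on day 4 and 8.02, 9.11 and 4.98 CPM on day 2 (adjusted p = 0.116). UGA4 and PUT2, singled out after their values were seen, showed the same library: UGA4 had 10.0, 16.7 and 314 CPM on day 4 and 21.7, 7.20 and 7.47 CPM on day 2, and PUT2 had 226, 207 and 735 CPM on day 4 and 165, 220 and 141 CPM on day 2. Neither was called (adjusted p = 0.0867 and 0.11). Without day 4 replicate 3, PUT1 was still called, at a log2 change of 2.20, and the list median was 0.10, and without day 2 replicate 1 a single member was higher.

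Apart from PUT1, members that were called included GZF3, a GATA repressor, which rose by 1.15 (SE 0.20, adjusted p = 0.00731), and ornithine transaminase CAR2, which had 68.8, 79.8 and 78.5 CPM on day 4 and 207, 204 and 272 CPM on day 2 (-1.59, SE 0.20, adjusted p = 0.00449). Of 19 amino acid permease genes, 1 rose and 0 fell in edgeR's test (1 lower at an unadjusted p under 0.05, and 1 by DESeq2). Both edgeR counts were below the shares of all genes (15.8% and 13.7%). The riser was DIP5, the permease of glutamate and aspartate, with 796, 797 and 1456 CPM on day 4 and 311, 308 and 321 CPM on day 2 (1.70, SE 0.28, adjusted p = 0.00661).

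Chaperone genes were examined because the strain came from Hsp90 inhibition. The Hsp90 genes themselves were not called: the inducible HSP82 had 213, 409 and 349 CPM on day 4 and 279, 153 and 251 CPM on day 2 (adjusted p = 0.255). The constitutive HSC82 had 1146, 1658 and 1431 CPM on day 4 and 1863, 1159 and 1723 CPM on day 2 (adjusted p = 0.654). The days overlapped in both genes. Of 13 Hsp90 and co-chaperone genes 4 rose (1 without day 4 replicate 2) and 0 fell (1 lower at an unadjusted p under 0.05 in edgeR, and 1 by DESeq2), among them the cyclophilin CPR7 by 1.14 (SE 0.22, adjusted p = 0.00864). CDC37, which brings kinases to Hsp90, rose by 0.82 and the p23 protein SBA1 by 0.87. The CDC37 call was lost without day 4 replicate 2 (adjusted p = 0.06) and day 2 replicate 1 (0.0644), and the SBA1 call without these and day 2 replicate 3 (0.0516 to 0.0645).

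Of 23 Hsp70 and J-protein genes 6 rose and 4 fell, against 13 and 1 under library totals, with 1 rise without day 4 replicate 2 and 2 falls without day 4 replicate 1. The ribosome-associated Hsp70 genes fell: SSB2 had 1240, 1097 and 981 CPM on day 4 and 2507, 2767 and 2552 CPM on day 2 (-1.24, SE 0.20, adjusted p = 0.00642), and SSB1 fell by 1.23 (lost under library totals). The stress-induced SSA4 had 166, 261 and 207 CPM on day 4 and 98.6, 101 and 99.6 CPM on day 2 (1.08, SE 0.21, adjusted p = 0.0101). BTN2, a stress-induced sorting protein with a copy on S. eubayanus VII, had 1410 and 705 CPM on day 4 and 88.5 and 131 CPM on day 2 over 4 libraries (3.27, SE 0.42, adjusted p = 0.00613). The mitochondrial chaperone SSC1 fell by 0.83, a call lost under library totals and in 4 fits with a library left out (adjusted p up to 0.0677).

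The translation machinery split. Of 122 cytosolic ribosomal protein genes 34 fell and 9 rose (median -0.10), while with library totals 11 fell and 37 rose (median 0.38), so the direction of the group depended on the scaling. RPL3 had 1949, 2111 and 1772 CPM on day 4 and 6685, 5873 and 7739 CPM on day 2 (-1.80, SE 0.22, adjusted p = 0.00449), and RPL4A and RPL4B, a duplicated pair that can share reads, fell by 1.80 and 1.66. RPS27A, RPL33B and RPL27A rose by 1.20, 1.26 and 1.29. With 1 library left out 14 to 30 members fell, the lowest without day 2 replicate 1, and 3 rose without day 4 replicate 2.

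Ribosome biogenesis genes had 27 of 101 members higher and 2 lower (55 and 0 under library totals), with a median of 0.57. UTP6, a component of the small subunit processome, had 30.9, 46.3 and 33.4 CPM on day 4 and 7.66, 11.5 and 10.1 CPM on day 2 (1.92, SE 0.26, adjusted p = 0.00491), and FCF1 and IMP3 of the same particle rose by 1.31 and 1.61. The nucleolar proline isomerase FPR3 fell by 1.31 (lost under library totals) and fibrillarin NOP1 by 1.08, with the NOP1 call lost under library totals and in 5 fits with a library left out (adjusted p up to 0.111). The count of rises ranged from 5 to 49 with a library left out. It was 5 without day 4 replicate 2, and 41 without both libraries that lack S. eubayanus VII. The list's summed level was 9229, 9027 and 5924 CPM on day 4 and 6132, 8682 and 5477 CPM on day 2, and day 2 replicates 1 and 2 lay within the day 4 range.

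Protein breakdown genes gave calls both ways. Of 29 proteasome genes 6 rose (2 without day 4 replicate 2) and 2 fell, shares not far from those of all genes (15.8% and 13.7%), and 14 rose and 0 fell under library totals: RPN4, the transcription factor that drives proteasome genes, had 757, 677 and 674 CPM on day 4 and 311, 252 and 296 CPM on day 2 (1.29, SE 0.20, adjusted p = 0.0053), and RPN9 rose by 0.98. Of 28 autophagy genes 7 rose (4 without day 4 replicate 2) and 2 fell (10 and 1 under library totals), with the scaffold ATG17 rising by 2.05 (20.2, 21.3 and 21.4 CPM on day 4 and 6.13, 4.95 and 4.11 CPM on day 2) and ATG12 by 1.48, while the phosphoinositide-binding ATG18 fell by 1.62. Of 11 vacuolar protease genes 5 fell and 1 rose (2 and 2 under library totals), with a median of -0.76, and 2 fell without day 4 replicate 1. The aminopeptidase APE3 had 1252, 793 and 1335 CPM on day 4 and 3371, 3173 and 3087 CPM on day 2 (-1.51, SE 0.25, adjusted p = 0.00679). Carboxypeptidase Y (PRC1) fell by 1.43, a call lost in 4 fits with a library left out (adjusted p up to 0.0756). The riser, PBI2 (1.07), encodes an inhibitor of vacuolar proteinase B, and its call was lost in 5 such fits (up to 0.0797) and with the length trend removed (0.0825).

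Of 12 histone genes and histone chaperones 6 rose and 0 fell in edgeR (1 lower at an unadjusted p under 0.05, and 0 by DESeq2), with a median of 0.64. HHT1, a histone H3 gene, had 908, 605 and 759 CPM on day 4 and 150, 295 and 231 CPM on day 2 (1.75, SE 0.30, adjusted p = 0.00708), and the H4 genes HHF1 and HHF2 rose by 1.81 and 1.70. Copies of histone genes are alike in sequence, so reads may be split between them. The list's median length was 402 bases, 4 members rose with the length trend removed, and 3 to 5 with a library left out, the lowest without day 4 replicate 2. The DNA replication and cell cycle list had 7 of 54 members higher and 6 lower (median 0.00), close to the shares of all genes, against 3 and 1 without day 4 replicate 2 and 19 and 1 under library totals. MCM3, a subunit of the replicative helicase, fell by 1.13, while the primase subunit PRI2 rose by 1.15 and SWI5, a transcription factor of late mitosis, by 1.16.

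The number of sterol genes called depended on the libraries. IDI1, isopentenyl diphosphate isomerase of the sterol pathway, had 225, 498 and 382 CPM on day 4 and 113, 110 and 102 CPM on day 2 (1.76, SE 0.30, adjusted p = 0.00689), and FAS2, the alpha subunit of fatty acid synthase, had 629, 549 and 741 CPM on day 4 and 2050, 1761 and 1602 CPM on day 2 (-1.50, SE 0.22, adjusted p = 0.00517). In the ergosterol list 2 of 21 members rose and 2 fell over 6 libraries, shares below those of all genes (15.8% and 13.7%). Without day 4 replicate 2, 1 rose and 0 fell, and 7 rose when both libraries lacking S. eubayanus VII were left out. The list's summed level was 12098, 13168 and 14014 CPM on day 4 and 10131, 16479 and 8336 CPM on day 2, so day 2 replicate 2 lay above every other library. Over the 4 libraries with that chromosome, 3 of 4 further members with a copy on it rose. Of the metal genes, IZH1 and IZH2, membrane proteins tied to zinc homeostasis, rose by 1.69 and 1.30 and the vacuolar zinc transporter ZRC1 fell by 1.23, in a wort to which zinc had been added. CUP1-2, a copper metallothionein, had 255, 190 and 133 CPM on day 4 and 29.7, 67.8 and 31.2 CPM on day 2 (2.16, adjusted p = 0.00785), but it lies in a repeated array and its counts are uncertain. Of 19 thiamine genes 5 rose and 1 fell (2 and 0 without day 4 replicate 2), with thiamin pyrophosphokinase THI80 rising by 1.39 and THI22 by 1.52.

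Of 24 cell wall genes 7 fell and 2 rose, with 3 higher and 1 lower under library totals, 0 higher and 1 lower without day 4 replicate 2. TIR1, a mannoprotein made at low oxygen and temperature, had 485, 323 and 468 CPM on day 4 and 1591, 2244 and 699 CPM on day 2 (-1.83, adjusted p = 0.0153), with the call lost without day 4 replicate 2 (0.0653). FLO11, which rose by 1.36 (adjusted p = 0.0242), had 364, 209 and 150 CPM on day 4 and 74.2, 85.8 and 121 CPM on day 2, and lost its call in 3 fits with a library left out (adjusted p up to 0.0927). Hypoxic genes were 3 higher and 4 lower of 18, against 2 and 0 without day 4 replicate 2. Hexose transport genes were 4 lower of 18 (2 without day 4 replicate 1) and 0 higher (1 at an unadjusted p under 0.05 in edgeR, and 1 by DESeq2). Their median was 0.26, with 10 of 18 changes positive, and under library totals 2 were higher and 1 lower. Phosphate genes were 2 higher and 3 lower of 18, with 0 higher without day 4 replicate 2. Among all genes 15.8% were higher and 13.7% lower, so the hypoxic and phosphate counts were not far from those shares. General stress genes were 2 higher and 2 lower of 24, with 0 higher without day 4 replicate 2, 0 lower without day 4 replicate 1, and 8 higher and 0 lower under library totals. Oxidative defence genes were 1 higher and 2 lower of 27. With TMM, the counts of the general stress and oxidative defence lists were below the shares of all genes. Of 7 ammonium assimilation genes, 0 were called either way by edgeR or DESeq2, and 0 had an unadjusted p under 0.05.

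Marker lists for other cell states were low on both days, and their part in the results above was not tested. The summed level of 18 sporulation and meiosis markers was 227, 186 and 211 CPM on day 4 and 115, 200 and 148 CPM on day 2, with 3 members higher and 1 lower, and 0 higher without day 4 replicate 2. IME1, the master regulator of meiosis, had 6.62, 7.49 and 7.40 CPM on day 4 and 1.35, 5.12 and 1.62 CPM on day 2 (adjusted p = 0.0738), and NDT80, which starts the middle meiotic programme, stayed under 5 CPM in each library. The 16 haploid and mating markers summed to 164 to 279 CPM on day 4 and 133 to 224 CPM on day 2, with 2 higher (STE4 and STE6) and 0 lower in edgeR (1 lower at an unadjusted p under 0.05, and 0 by DESeq2). The calls of STE4 and STE6 were each lost in 5 fits with a library left out (adjusted p up to 0.153 and 0.0798).

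On S. eubayanus chromosome VII itself, 56 of 400 features (14%) were higher and 66 (16.5%) lower over day 4 replicates 2 and 3 and day 2 replicates 1 and 3. With 1 of these 4 libraries left out, 16 to 38 features were higher and 13 to 36 lower, the lowest both without day 4 replicate 2. Such a fit leaves 1 library in a day, which is assumed to vary like those of the other day. SCM4, a mitochondrial outer membrane protein (DI49_2011, VII:570974-571531), had 175 and 157 CPM on day 4 and 29.6 and 25.0 CPM on day 2 (2.60, SE 0.26, adjusted p = 0.0115). ECL1 (2.85) and the Mediator subunit SRB5 (2.83) rose, and ALG13 (-2.09), an enzyme of N-glycan assembly, and the myosin light chain MLC1 (-1.72) fell. With all copies of these genes summed, 85 of 464 genes (18.3%) were higher and 74 (15.9%) lower.

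The copies were then set side by side. Of 3694 genes with 1 copy in each sub-genome and both copies fitted, 220 had both copies higher and 254 both lower, and 2188 had neither copy called. The changes had the same sign in 77.1% of the genes, but both copies were measured in the same 6 libraries and so share their library differences. In 5 genes (AGE2, ARC18, NAS2, OST3 and PBP2, named because they are so few) the S. cerevisiae copy was higher and the S. eubayanus copy lower, and the reverse occurred in 0 genes. A call in the S. cerevisiae copy alone was a rise in 361 genes and a fall in 132, while a call in the S. eubayanus copy alone was a rise in 166 and a fall in 368. The median log2 change was 0.10 for S. cerevisiae copies and -0.08 for S. eubayanus copies.

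The change of the ratio between the copies was tested within libraries. The share of the S. cerevisiae copy was higher on day 4 for 56 of 3692 genes (1.52%) and lower for 4 (0.108%), at a median change of 0.18 (log2). The test was against no change of the ratio, not against this median, so a shift common to all pairs counts towards the calls. With 1 library left out the median was 0.12 to 0.25. RAS2, a GTPase that regulates growth through cyclic AMP, showed no call with its copies summed (adjusted p = 0.556), yet its copies parted. The S. cerevisiae copy (YNL098C) had 137, 118 and 132 CPM on day 4 and 71.6, 87.4 and 88.4 CPM on day 2. The S. eubayanus copy (DI49_4633) had 42.7, 36.5 and 54.4 CPM on day 4 and 101, 112 and 130 CPM on day 2. The days did not overlap in either copy, and the ratio moved by 2.03 (SE 0.20, adjusted p = 0.0294).

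GTR1, a Rag GTPase of the TORC1 pathway, moved mostly through its S. cerevisiae copy (50.7, 76.1 and 50.3 CPM on day 4 and 14.1, 16.7 and 13.9 CPM on day 2), with the S. eubayanus copy at 38.9 to 46.0 CPM on day 4 and 48.6 to 51.8 CPM on day 2 (ratio change 2.17, SE 0.23). In TRM9, a tRNA methyltransferase, the S. eubayanus copy had 7.90, 8.55 and 6.27 CPM on day 4 and 27.4, 32.1 and 31.1 CPM on day 2, while the S. cerevisiae copy was not called (ratio change 2.05). MVD1, of the mevalonate pathway, and HST3, a histone deacetylase, moved by 1.48 and 1.95. The 4 genes whose ratio went the other way were CAT2, carnitine acetyltransferase (-1.64), HSH49, a U2 snRNP protein (-2.10), ARC19, of the Arp2/3 complex (-1.23), and FSH2, a serine hydrolase (-1.23). In HSH49 the S. eubayanus copy had 17.5, 20.6 and 18.4 CPM on day 4 and 2.68, 3.58 and 2.12 CPM on day 2.

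These ratio calls were sensitive to the libraries. With any of the 6 libraries left out, 0 pairs passed edgeR's test in either direction, although 382 to 604 were higher and 124 to 248 lower at an unadjusted p under 0.05, and no other tool was run on those fits. The RAS2 ratio then moved by 1.95 to 2.16, with adjusted p = 0.0751 to 0.182. Without genes on S. cerevisiae I and XII and S. eubayanus II, the chromosomes with the largest deviations, 252 of 2767 pairs were higher and 70 lower. With a library left out of that smaller set, an alternative chosen after seeing the data, 39 to 281 were higher and 1 to 101 lower, and the RAS2 adjusted p was 0.00846 to 0.0394.

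**Figure D5:**
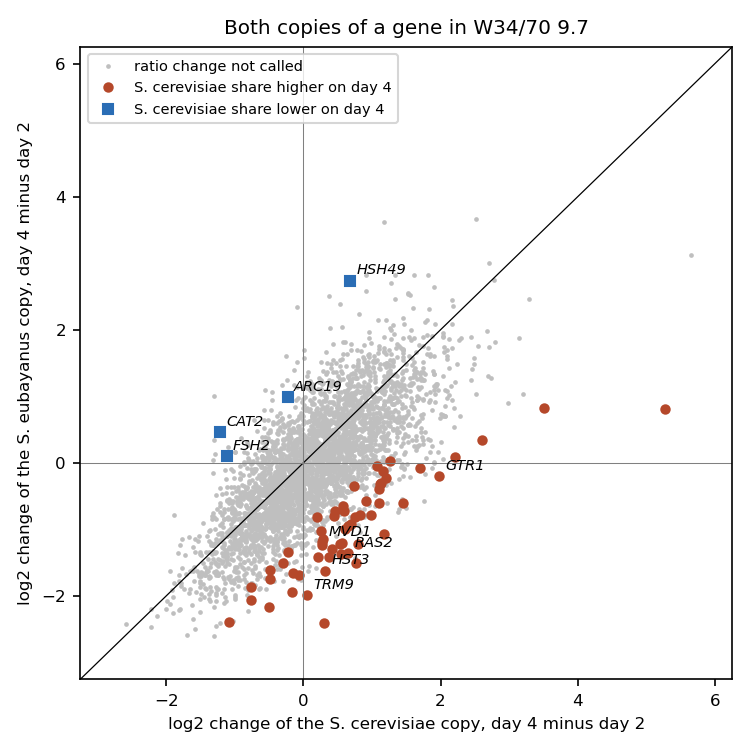
Each point is a gene with 1 copy in each sub-genome, placed by the log2 change (day 4 minus day 2) of its S. cerevisiae copy (x axis) and S. eubayanus copy (y axis), with the line of equal change. The 56 genes whose ratio moved towards S. cerevisiae lie below the line, with RAS2 at 0.65 and -1.36, and the 4 that moved the other way lie above it.

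The day 4 against day 2 change was then compared with that of CBS1538 11.1, for genes without a copy on S. eubayanus VII. The labels of the CBS1538 11.1 day 2 libraries disagree, naming the mutant in the title but the parent as strain, so every difference below rests on libraries of uncertain strain. The change was more positive in W34/70 9.7 for 183 of 6123 genes (2.99%) and more negative for 178 (2.91%). Without CBS1538 11.1 day 4 replicate 2 these counts were 0 and 0 in edgeR, with 564 and 527 at an unadjusted p under 0.05, and they were 23 and 29 without W34/70 9.7 day 4 replicate 2. They were 37 and 43 without CBS1538 11.1 day 4 replicate 1, 41 and 56 without W34/70 9.7 day 2 replicate 1, 65 and 94 without its day 2 replicate 3, 98 and 106 without its day 4 replicate 1, 123 and 113 without CBS1538 11.1 day 2 replicate 3, and 273 and 290 without W34/70 9.7 day 2 replicate 2. The named differences below were lost without CBS1538 11.1 day 4 replicate 2 (adjusted p = 0.0528 for the 10 genes with the smallest p). DESeq2, run on all 12 libraries only, gave 393 and 360.

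FLO11, a cell-surface flocculin, had 238 ± 107 CPM on day 4 and 91.8 ± 23.7 CPM on day 2 in W34/70 9.7, and 47.3 ± 2.52 CPM on day 4 and 129 ± 36.0 CPM on day 2 in CBS1538 11.1 (SD, n = 3 each). The difference between the changes was 2.82 (SE 0.44, adjusted p = 0.0135, edgeR). Ribosome biogenesis genes were among the largest such differences: MAK21 (2.43), SSF2 (2.83) and FYV7 (2.78) had log2 changes of 0.56, 1.22 and 0.53 in W34/70 9.7, of which only that of SSF2 was called within the strain (and lost in 4 fits with a library left out), and -1.86, -1.60 and -2.22 in CBS1538 11.1. Of the 101 ribosome biogenesis genes fitted, 25 passed this test of the difference. NGG1, a subunit of the SAGA complex, differed by 2.43.

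In the other direction stood FSH2 (-2.43), HEM12, uroporphyrinogen decarboxylase of haem synthesis (-1.75), the ubiquitin receptor DSK2 (-1.78), the mitochondrial protein AIM46 (-2.30) and vacuolar proteinase B, PRB1 (-1.89). PRB1 had 855 ± 150 CPM on day 4 and 1535 ± 128 CPM on day 2 in W34/70 9.7, and 3906 ± 518 CPM on day 4 and 1890 ± 127 CPM on day 2 in CBS1538 11.1 (SD, n = 3 each). ARO7, which rose in W34/70 9.7, had 14.8 ± 1.24 CPM on day 4 and 14.9 ± 3.05 CPM on day 2 in CBS1538 11.1 (SD, n = 3 each), a difference between the changes of 1.89 (SE 0.34, adjusted p = 0.0135, edgeR).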

How the data were processed

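Raw read counts per annotated feature were deposited by the authors as 1 table of 11979 features, 6600 on S. cerevisiae and 5379 on S. eubayanus chromosomes, with no normalisation. Total RNA was read as paired ends of 150 bases, per the labels. STAR, SAMtools, featureCounts and DESeq2 are named, with the S. cerevisiae build R64, per the submitters' processing notes. Not given in the sources used here are tool versions, which S. eubayanus assembly served, whether strand was used and how multi-mapping reads were treated. Reads shared by near-identical genes, or by overlapping genes on opposite strands, can therefore be counted on either. Coordinates are those of the deposited table.

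Samples were grouped by title, and 0 sample columns were left out. The counts were tested in R 4.3.3 with edgeR 4.0.16 (TMM factors, filterByExpr with minimum count 10 and minimum total count 15, quasi-likelihood test, Benjamini-Hochberg adjustment over all features fitted, threshold 0.05). SE is the log2 change over the square root of F. Counts were fitted by feature and summed by gene name, both without S. eubayanus VII. The 4 libraries with counts on that chromosome gave its features and the 464 genes with a copy on it. The copy ratio was fitted in 12 columns with library as a term, and the strain difference as an interaction over 12 libraries. DESeq2 1.42.0 and limma 3.58.1 gave alternatives, as did other factors, no filter, chromosomes or libraries left out, 1 fit over 18 libraries, a replicate block and a length offset. The main fits were also run on simulated counts that lacked the chromosome deviations and the length trend, so that check does not cover them. No library duplicated another of the same day, since replicates of a day differed by a chi-square of at least 67.2 per degree of freedom. Pairs across days were not compared in this way. Nothing says that replicates came from separate propagations, so p-values measure the spread between these tubes, part of which may be technical. The deviations of S. cerevisiae I and XII and S. eubayanus II, each found in 1 library of each day, are in that spread. Their origin was not tested. Fewer cells of a state and less RNA per cell cannot be told apart in such samples.

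The comparison, the 49 gene lists and the rule for named genes were chosen with earlier results of these data known. Named genes are the 10 largest rises and falls among called genes that reach 4 (mean log2 CPM) in the higher day with no overlap, the 3 called members of a list with the smallest p and those against its majority, a fixed set, and the genes with the smallest p for the copy ratio, S. eubayanus VII and the strain difference, and the text names a part of them.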

Additional observations from a re-analysis of the deposited data

Results flagged for a closer look

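The change between day 4 and day 2 differed between W34/70 9.7 and CBS1538 11.1, by the edgeR test of the difference itself, for 29 of the genes named here. Each value is the log2 change of W34/70 9.7 minus that of CBS1538 11.1. With CBS1538 11.1 day 4 replicate 2 left out, 0 genes passed in edgeR (564 more positive and 527 more negative at an unadjusted p under 0.05), and the strain of the CBS1538 11.1 day 2 libraries is uncertain. The difference was positive for DIP5 (4.04), SSF2 (2.83), FLO11 (2.82), FYV7 (2.78), TAN1 (2.48), MAK21 (2.43), NGG1 (2.43), SMD2 (1.98), ARO7 (1.89), ATG17 (1.86), SWI5 (1.77), MRPS28 (1.65), PRI2 (1.38) and IZH2 (1.07). DIP5 averaged 0.119 CPM on day 4 and 0.563 CPM on day 2 in CBS1538 11.1, a level of few counts. The difference was negative for FSH2 (-2.43), AIM46 (-2.30), CAT2 (-2.01), PRB1 (-1.89), GPD1 (-1.86), DSK2 (-1.78), HEM12 (-1.75), HSP60 (-1.59), ALD4 (-1.54), EHT1 (-1.36), TRR1 (-1.34), CCP1 (-1.25), PYC2 (-1.14), PRE5 (-1.13) and GPD2 (-1.12).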

How the results depend on the processing

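Among the 210 results for named genes, 0 that had been called reversed under the alternatives run, while genes that were not called, such as MVD1, BAT1, ARO9 and ARC19, changed sign. Of the 154 named genes called with copies summed, 107 were called with each of the 6 libraries left out in turn, 11 in 5 of these fits and 36 in fewer, and 150 with the length trend removed. Under library totals, higher and lower counts were 2015 and 269 (copies summed), 3086 and 431 (copies apart), 129 and 24 (S. eubayanus VII features), and 190 and 20 (summed genes with a copy there). With that scaling 69 genes had a more negative change in W34/70 9.7 than in CBS1538 11.1. A fit over 18 libraries gave 1968 higher features with copies apart. DESeq2 gave 393 and 360 differences between strains. For the copy ratio limma gave 7 lower pairs, and leaving out S. cerevisiae I and XII and S. eubayanus II gave 252 higher and 70 lower. Leaving out a library as well gave 202 higher and 41 lower pairs (day 4 replicate 1), 281 and 101 (day 2 replicate 2), 111 and 25 (day 2 replicate 3) and 1 lower (day 4 replicate 2). The cause of these shifts was not tested.

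With 1 library left out, copies summed gave 389 to 1012 higher and 305 to 898 lower genes, and copies apart 361 to 1375 higher and 351 to 1323 lower features. S. eubayanus VII features gave 16 to 38 higher and 13 to 36 lower, summed genes with a copy there 29 to 52 and 14 to 35, the copy ratio 0 to 0 in both directions, and the strain difference 0 to 273 and 0 to 290. These fits hold fewer samples, and on S. eubayanus VII they leave 1 library in a day, assumed to vary like those of the other day.

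Same-numbered libraries of the 2 days did not deviate together for replicates 1 and 2 (correlations -0.49 and -0.26). The replicate 3 libraries did (0.40), each being the best match of the other. Day 4 replicate 1 correlated best with day 2 replicate 2 (0.65) and day 4 replicate 2 with day 2 replicate 1 (0.39). These pairs also share chromosome deviations, as the replicate 3 libraries do. The numbers 1 and 2 may thus be crossed between days, and the block below may join libraries that do not match. With the number as a replicate block, 658 genes were higher and 527 lower with copies summed, 982 and 939 with copies apart, and 106 and 101 differed between strains. Depth limits genes at a few CPM, where counting error is large.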
